A study of Mus musculus with 16 samples.

Results

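The genes described here belong to the families of voltage-gated sodium, calcium and potassium channels and of the related HCN channels. They were taken by symbol: the sodium channel alpha and beta subunits (Scn followed by a number and a or b), the pore-forming calcium channel subunits (Cacna1), the alpha2delta subunits (Cacna2d1 to Cacna2d4), the potassium channel families Kcna, Kcnb, Kcnc, Kcnd and Kcnq, and the Hcn genes. Of 54 genes with such symbols, 49 had at least 10 counts in at least 4 of the 16 libraries, among 17736 genes that were tested. All 49 also passed the filter on low counts that the test used. Below the minimum stayed Scn10a with 2 to 8 counts per library, Scn11a with 0 to 10, Kcna10 with 0 to 7, Kcna7 with 0 to 4 and Scn4a with 0 to 3.

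RNA of brain tissue from female mice aged 9 months was sequenced in 4 groups of 4 libraries. Mice with the normal gene (Ch25h+/+) were either Tau- or Tau+, and so were mice of the Ch25h-/- genotype. Ch25h encodes cholesterol 25-hydroxylase, an enzyme that makes an oxysterol, and -/- marks animals without the gene. Tau+ is taken to mean the presence of a tau transgene, whose line and promoter are not given in the sources used here. The labels name the frontal cortex as tissue and the design text names the hippocampus, and they do not say that each library is a separate animal, so the p-values below measure the spread between these libraries, which may in part be technical.

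Library totals were 15530352 to 25602500 counts, and Ch25h itself had 0 counts in all 8 libraries labelled -/-. The summed level of 4 neocortical markers (Rorb, Cux2, Fezf2 and Lamp5) was 399 to 532 CPM (counts scaled to library size) and that of 4 hippocampal markers (Prox1, C1ql2, Dsp and Fibcd1) 32.7 to 69.6 CPM. Libraries also fell into 2 kinds by a ribosomal RNA entry of the count table: 7 libraries held over 1000 CPM of it, all of them Ch25h-/-, and the other 9 held 111 to 475 CPM. Replicate 1 of Ch25h-/- Tau+, with 153 CPM, was the only rRNA-poor library without Ch25h. In Tau- the library kind and the Ch25h genotype therefore cannot be told apart, and in Tau+ they differ by a single library. A further library stood apart in the channel genes themselves: in replicate 1 of Ch25h+/+ Tau+ the 49 genes summed to 5343 CPM, against 5931 to 7247 CPM in the other 15 libraries, and its summed excitatory neuron markers were the lowest of its group at 4127 CPM, against 4902 to 5553 CPM in the other 3. Its summed pan-neuronal (4853 CPM), oligodendrocyte (2426 CPM) and astrocyte (1170 CPM) markers were also the lowest of its group. Its inhibitory neuron markers, at 988 CPM, lay within the 836 to 1028 CPM of the other libraries of the group. The part of cell makeup in its channel values was not tested.

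Voltage-gated channels open when the membrane potential changes and let sodium, calcium or potassium ions pass. In cortical neurons sodium channels at the axon initial segment start the action potential, potassium channels end it and set the firing rate, and calcium channels couple it to transmitter release and to signalling in dendrites and the nucleus. HCN channels open on hyperpolarization and carry a mixed sodium and potassium current that shapes dendritic integration. Beta and alpha2delta subunits do not form the pore but steer the trafficking and gating of the subunits that do. In bulk tissue a lower level from fewer cells of a type and one from less RNA per cell cannot be told apart.

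The coding sequence of these genes differs widely in base composition, which bears on the results below. The windows printed here, of 60 bases each, come from GENCODE M21 transcripts (GRCm38) and are given on the coding strand. The capitals mark the codons of the selectivity filter, the stretch of the pore that chooses the ion. A search of the translated coding sequence found a filter motif in 20 of 20 Kcn genes and 4 of 4 Hcn genes. The genes shown are potassium channels of low (Kcnb2) and high (Kcnc4) GC content and Hcn2, the most GC-rich of the 49 genes.
Kcnb2: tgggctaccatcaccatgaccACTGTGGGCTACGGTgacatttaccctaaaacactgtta
Kcnc4: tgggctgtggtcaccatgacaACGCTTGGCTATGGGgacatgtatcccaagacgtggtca
Hcn2: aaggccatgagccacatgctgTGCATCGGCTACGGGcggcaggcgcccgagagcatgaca
Each window lies within 1 exon. The Kcnb2 window (chr1:15710025-15710084, plus strand) holds 48.3% G and C and the Kcnc4 window (chr3:107447775-107447834, minus strand) 55.0%. That of Hcn2 (chr10:79728932-79728991, plus strand) holds 65.0%. Of the 20 codons in each window, 12 end in G or C in Kcnb2, 14 in Kcnc4 and 19 in Hcn2. Over the longest annotated transcript, G and C made up 39.3% in Kcnb2, 42.4% in Scn9a, 59.6% in Kcnc4 and 65.4% in Hcn2. The median over the 49 genes was 52.6%, against 49.6% over 17608 tested genes with a value, and their median exon length was 8.76 kb, against 3.97 kb.

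Levels were compared between genes as CPM per kb of exon, since a longer gene gives more counts at the same level. The lowest was Cacna1s at 0.0808 CPM per kb over all libraries, the pore subunit of the skeletal muscle calcium channel, which had 3 to 17 counts per library. Among the genes with high levels were Hcn2 at 85.6 and Scn2b, a sodium channel beta subunit, at 66.8 CPM per kb. Among the alpha subunits Scn2a (23.7), the main subunit of excitatory neurons, Scn8a (22.8), which sets the firing threshold at the axon initial segment, and Scn1a (14.7), prominent in inhibitory interneurons, were the highest. In the Ch25h+/+ Tau- libraries Scn2a (21.1 ± 2.85) and Scn8a (21.2 ± 1.46 CPM per kb, SD, n = 4 each) differed by less than their spread. Scn3a, the alpha subunit of the developing brain, was at 2.85 CPM per kb. Scn7a and Scn9a, whose best known sites are glia and peripheral sensory neurons, were at 0.541 and 0.388.

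Over all libraries, the highest calcium channel pore subunit of each family was Cacna1a (21.7 CPM per kb) in Cav2, the P/Q-type subunit of presynaptic terminals, Cacna1g (14.6) in Cav3, a T-type subunit that opens at low voltage, and Cacna1d (4.02) in Cav1, an L-type subunit of neuronal cell bodies and dendrites. The order changed between groups in Cav3 and Cav1. Another Cav3 subunit, also at 14.6, was above Cacna1g in all groups but Ch25h-/- Tau-. Cacna1c was above Cacna1d in Ch25h+/+ Tau- (3.87 against 3.50 CPM per kb) and level with it in Ch25h+/+ Tau+ (3.26 against 3.27). Cacna1d was the higher in Ch25h-/- Tau- (4.49 against 4.22) and Ch25h-/- Tau+ (4.84 against 4.47). All members of Cav2 and Cav3 were above Cacna1d. The alpha2delta subunit with the highest level was Cacna2d1 at 17.7 CPM per kb. In the potassium channels Kcna2 (27.1), an axonal delayed-rectifier subunit, Kcnc4 (37.8), of the fast-spiking Kv3 family, and Kcnd2 (19.2), which carries dendritic A-type current, led their families. Kcnq1 (0.156) and Cacna1f (0.118), known from heart and retina, were the lowest besides Cacna1s.

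**Figure D1:**
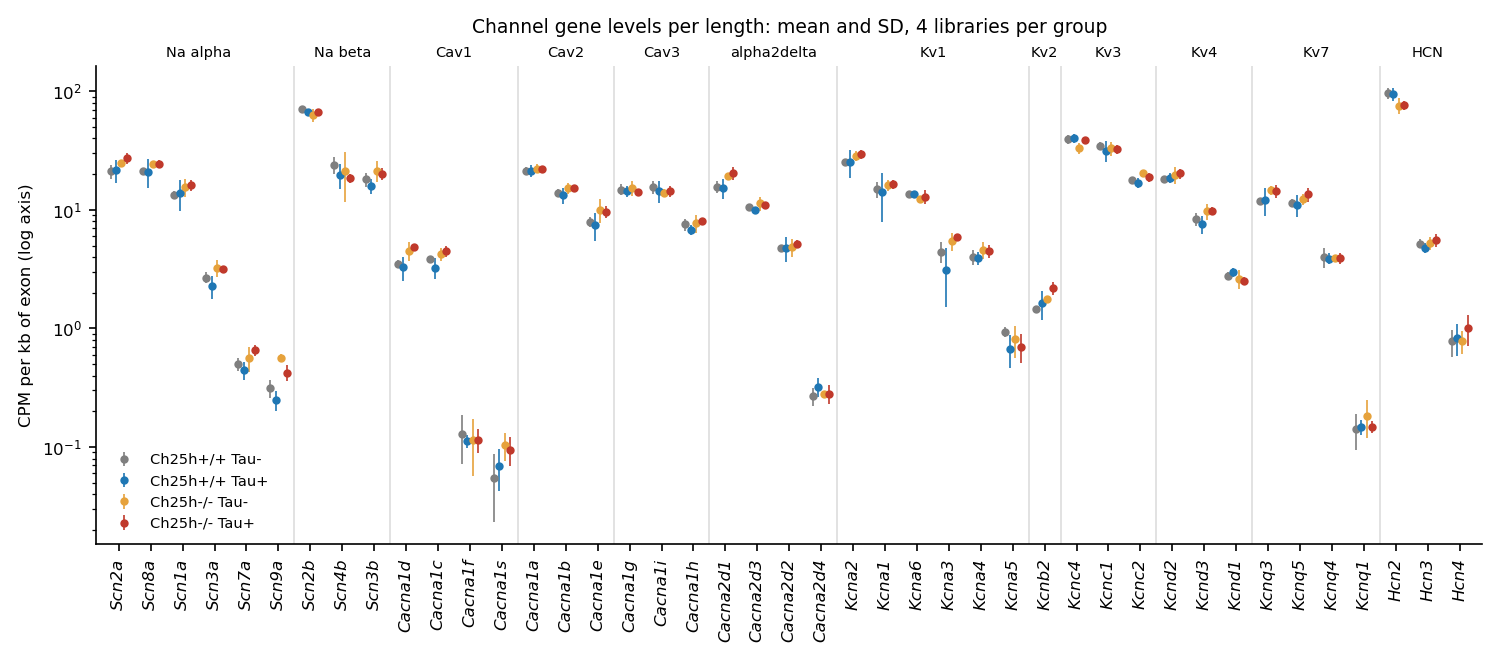
Level of 43 of the channel genes in CPM per kb of exon (log axis), grouped by family and ordered within it by mean level; points are group means and bars SD over 4 libraries. Levels span from 85.6 CPM per kb for Hcn2 to 0.0808 for Cacna1s, and the 4 groups of a gene lie close together beside the distance between genes.

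With Ch25h present, none of the 49 genes passed the threshold for tau status. Their median log2 fold change (Tau+ against Tau-, in Ch25h+/+) was -0.06, with 15 of 49 above 0, beside a median of -0.01 over all genes tested. In this comparison 5 of 5 astrocyte and 5 of 5 oligodendrocyte markers were above 0, with Gfap past the threshold (2.46, edgeR adjusted p 6.13e-05). Of the neuronal markers, 0 of 4 excitatory, 1 of 5 pan-neuronal and 4 of 6 inhibitory ones were above 0, none past the threshold. The part of these differences in the channel values was not tested. Kcna5, a Kv1 subunit of low level in brain, was at 2.45, 2.57, 2.68 and 3.02 CPM in Tau- and at 1.42, 2.52, 1.39 and 2.33 CPM in Tau+. All but 1 of the Tau+ libraries were below all Tau- libraries. The log2 fold change was -0.47 (SE 0.25) with an adjusted p of 0.634 (edgeR quasi-likelihood test, Benjamini-Hochberg over all genes). Cacna1c, an L-type subunit, had a log2 fold change of -0.24 (SE 0.12), also not past the threshold.

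The count of 0 from edgeR stood beside 1.56% of all genes past the threshold, DESeq2 and limma-voom also called 0 of the 49, 1 of 49 had an unadjusted p under 0.05 beside 9.38% of all genes, and 0 of 49 had groups that did not overlap beside 5.86%. Of the brain sodium channels, the log2 fold change was 0.04 (SE 0.16) for Scn1a, 0.03 (SE 0.13) for Scn2a, -0.24 (SE 0.14) for Scn3a and -0.01 (SE 0.13) for Scn8a. Without replicate 1 of Ch25h+/+ Tau+ the median over the 49 genes was 0.01, with 26 above 0. Without replicate 3 of that group it was -0.14, with 9 above 0 and 5 with an unadjusted p under 0.05, and without replicate 2 it was -0.10, with 14 above 0 and 5 with such a p.

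Kcna3 encodes a Kv1 subunit known from microglia and T cells as well as neurons, and Scn4b and Cacna2d3 are rich in striatum, so they were set beside the markers of those cells. Kcna3 was at 10.5, 8.37, 8.59 and 6.35 CPM in Ch25h+/+ Tau- and at 1.6, 6.94, 8.93 and 6.4 CPM in Ch25h+/+ Tau+. The value of 1.6 CPM rests on 26 counts, and the other 7 values overlapped between the groups. The log2 fold change with tau was -0.49 (SE 0.29, edgeR adjusted p 0.702). The summed microglial markers (Cx3cr1, P2ry12, Tmem119 and Csf1r) went from 193 to 207 CPM in the Ch25h+/+ Tau- libraries to 233 to 285 CPM in the Ch25h+/+ Tau+ libraries, with 2 of 4 past the threshold and higher, none at 0 counts in any library. Scn4b spread from 49 to 161 CPM within Ch25h-/- Tau- alone, and its 4 pairwise log2 fold changes lay between -0.29 and -0.10 with an SE of 0.24. Summed striatal markers ranged from 133 to 275 CPM over the 16 libraries, and their part in the spread of Scn4b was not tested. Cacna2d3 stayed between 78.6 and 116 CPM in all libraries.

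Without Ch25h, none of the 49 genes passed for tau status either. The median log2 fold change was 0.02 with 28 of 49 above 0, beside 0.01 over all genes tested. Without replicate 1 of Ch25h-/- Tau- the median was -0.02, with 20 above 0. Scn9a was at 6.51, 7.47, 7.89 and 6.97 CPM in Ch25h-/- Tau- and at 4.46, 5.52, 5.17 and 6.49 CPM in Ch25h-/- Tau+. All 4 Tau+ libraries were below all 4 Tau- libraries, with the nearest pair close together. The log2 fold change was -0.42 (SE 0.17) with an unadjusted p of 0.0220, which did not pass after adjustment with edgeR. Kcnc4 was at 133, 118, 104 and 131 CPM in Tau- and 152, 148, 139 and 130 CPM in Tau+, with 1 Tau+ library inside the range of the Tau- libraries, and a log2 fold change of 0.23 (SE 0.09, unadjusted p 0.0193). Kcnb2, a delayed rectifier of cell bodies, went from 26.5 to 27.6 CPM in Tau- to 28.1 to 37.6 CPM in Tau+ without overlap, with a log2 fold change of 0.30 (SE 0.14, unadjusted p 0.0528). In this comparison 0.0395% of all genes passed the threshold with edgeR, DESeq2 and limma-voom called 0 of the 49, 2 of 49 had an unadjusted p under 0.05 beside 3.68% of all genes, and 2 of 49 had groups that did not overlap beside 2.14%.

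Loss of Ch25h went with higher Scn9a in both tau states. In Tau+ it also went with higher Cacna1d and Cacna1c. In Tau- 1 of 49 genes passed, beside 1.03% of all genes tested (0.214% of all genes higher and 0.812% lower). In Tau+ 4 of 49 passed, 3 of them higher, beside 3.55% of all genes (1.14% higher and 2.40% lower).

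Scn9a (GRCm38 chr2:66480080-66634962, minus strand) encodes a sodium channel alpha subunit best known from pain-sensing neurons. It was at 3.93, 4.10, 3.15 and 4.79 CPM in Ch25h+/+ Tau- and, as given above, at 6.51 to 7.89 CPM in Ch25h-/- Tau-. In Tau+ it was at 2.53, 3.32, 4.0 and 2.94 CPM with Ch25h and at 4.46 to 6.49 CPM without it. In either tau state all 4 libraries without Ch25h were above all 4 with it. The means were 3.99 ± 0.672 and 7.21 ± 0.603 CPM in Tau- and 3.20 ± 0.625 and 5.41 ± 0.846 CPM in Tau+ (SD, n = 4 each). The log2 fold change was 0.85 (SE 0.17, edgeR adjusted p 0.0320) in Tau- and 0.75 (SE 0.17, adjusted p 0.0285) in Tau+.

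Cacna1d (chr14:30039939-30491455, minus strand) encodes an L-type calcium channel subunit that opens at comparatively low voltage. In Tau+ it was at 27.1, 43.5, 47.5 and 46.9 CPM with Ch25h and at 57.1, 63.8, 59.8 and 63.6 CPM without it, so that the groups did not overlap and the replicate that stood apart was the lowest. Cacna1d had a log2 fold change of 0.56 (SE 0.14, edgeR adjusted p 0.0404). In Tau- the values were 46.0, 43.9, 46.8 and 39.7 CPM with Ch25h and 46.4, 50.8, 69.8 and 59.5 CPM without it. These overlapped at their edge, and the log2 fold change was 0.36 (SE 0.14, adjusted p 0.164).

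Cacna1c (chr6:118587240-119196418, minus strand) encodes the other main L-type subunit of neurons, which links calcium entry to gene transcription. In Tau+ it was at 54.7, 82.2, 79.3 and 60.4 CPM with Ch25h and at 90.6, 86.0, 92.7 and 110 CPM without it. The groups did not overlap, and 2 of the 4 libraries with Ch25h were well below the other 2. For Cacna1c the log2 fold change was 0.45 (SE 0.12, edgeR adjusted p 0.0473) in Tau+ and 0.13 (SE 0.12, adjusted p 0.582) in Tau-, where 76.3 to 86.9 CPM with Ch25h overlapped 78.4 to 99.4 CPM without it.

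**Figure D2:**
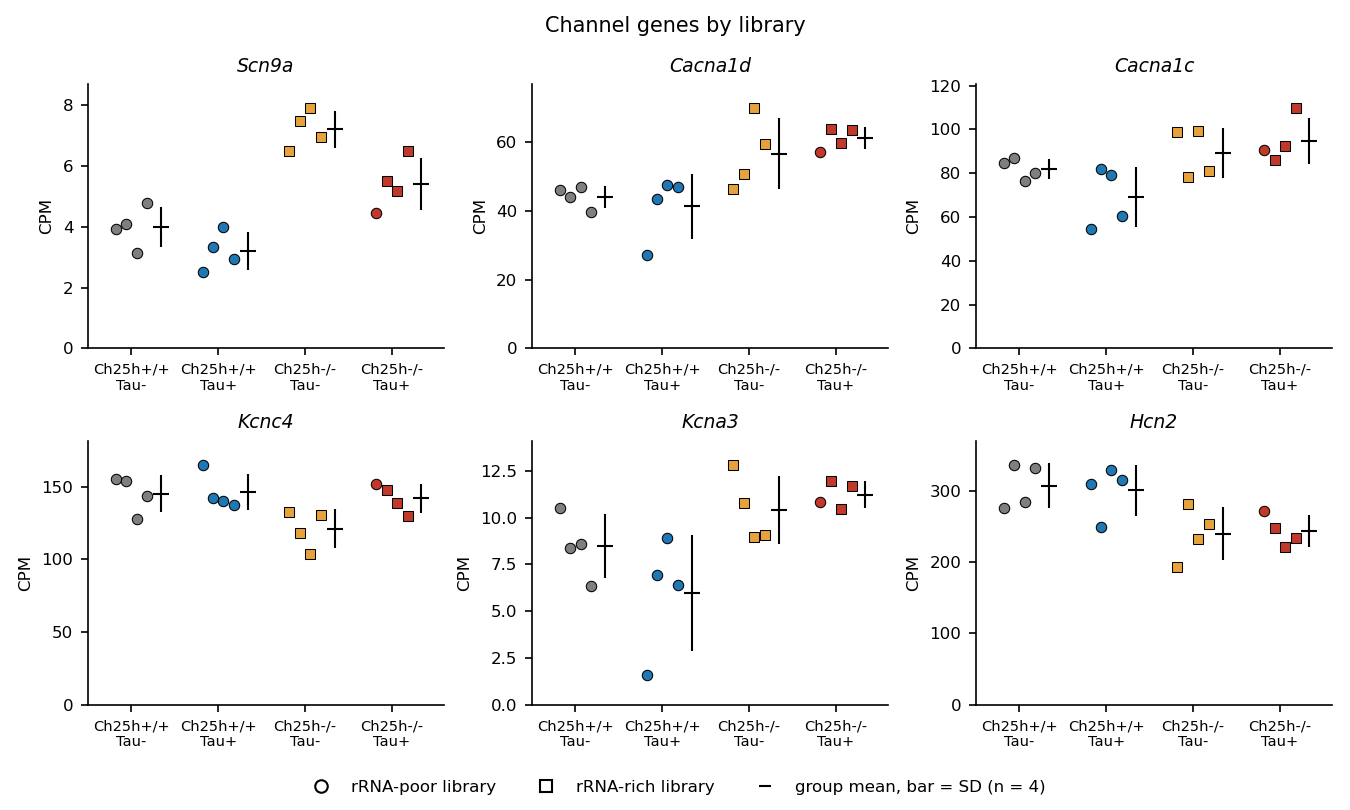
CPM of 6 channel genes in each of the 16 libraries; circles are rRNA-poor and squares rRNA-rich libraries, and the bar beside each group is its mean and SD (n = 4). Scn9a is higher in every Ch25h-/- library than in the Ch25h+/+ libraries of the same tau status, and all squares are Ch25h-/-.

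All of these calls were lost with the library kind in the model. With a covariate for rRNA-rich against rRNA-poor libraries, none of the 49 genes passed in either tau state, beside 0 of all 17736 genes in Tau- and 10 in Tau+. In this fit the Ch25h effect rests on the 1 rRNA-poor library without Ch25h. Scn9a had log2 fold changes of 0.49 in Tau- and 0.47 in Tau+, and Cacna1d had 0.47 and Cacna1c 0.39 in Tau+. Against the single rRNA-poor Ch25h-/- Tau+ library alone, a choice made after seeing the data, the Tau+ values were 0.47 for Scn9a, 0.46 for Cacna1d and 0.38 for Cacna1c. These 3 values have the direction of the full comparison. They are given as a description, since that arm has 1 library whose spread is assumed to equal that of the other groups, and 9 of 19349 genes passed in that fit. Without replicate 1 of Ch25h+/+ Tau+ no channel gene passed in Tau+ either (adjusted p 0.0696 for Scn9a and Cacna1d and 0.110 for Cacna1c). 

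Leaving out each of the 16 libraries in turn gave 0 to 3 channel genes past the threshold in Tau- and 0 to 11 in Tau+. Scn9a lost its call in Tau- in 8 of these 16 fits and in Tau+ in 5, Cacna1d in 9 and Cacna1c in 12. Over the 16 fits the log2 fold changes stayed above 0, at 0.75 to 0.95 for Scn9a in Tau-, 0.64 to 0.87 for Scn9a in Tau+, 0.40 to 0.64 for Cacna1d and 0.35 to 0.53 for Cacna1c. In Tau+ no channel gene passed without replicate 1 or 4 of Ch25h+/+ Tau+ or without replicate 2, 3 or 4 of Ch25h-/- Tau+, 7 passed without replicate 1 of Ch25h-/- Tau+ and 11 without replicate 2 of Ch25h+/+ Tau+. In Tau- none passed without any 1 of the 4 Ch25h+/+ Tau- libraries, replicate 4 of Ch25h+/+ Tau+ or replicate 1, 2 or 3 of Ch25h-/- Tau-, and 3 passed without replicate 1 of Ch25h+/+ Tau+. The count over all genes was 1691, 1258 and 1306 in the fits that gave 7, 11 and 3. It was 108 to 269 in the Tau+ fits and 3 to 36 in the Tau- fits that gave no channel gene, against 629 in Tau+ and 182 in Tau- with all 16 libraries.

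With Ch25h loss, 6 of 7 sodium channel alpha subunits had a log2 fold change above 0 in Tau- and 7 of 7 in Tau+. The medians were 0.20 and 0.49, and 9108 and 8985 of all 17736 genes tested were above 0. Scn1a, Scn2a, Scn3a, Scn7a and Scn9a had a GC content of 40.2% to 43.4%, below the median of 52.6% over the 49 genes. Scn3a went from 20.1, 35.5, 29.1 and 28.4 CPM to 37.2, 41.8, 38.4 and 41.8 CPM in Tau+ without overlap, and missed the threshold at a log2 fold change of 0.49 (SE 0.14, edgeR adjusted p 0.0601). DESeq2, limma-voom and edgeR with no filter beyond 1 count called Scn3a higher in Tau+. Scn2a was at 219 to 304 CPM in Ch25h+/+ Tau- and at 306 to 320 CPM in Ch25h-/- Tau-, and at 210 to 338 CPM against 319 to 398 CPM in Tau+. Its log2 fold changes were 0.23 (SE 0.13) and 0.34 (SE 0.13), and those of Scn1a (0.20 and 0.22) and Scn8a (0.20 and 0.22) were about as large with SEs of 0.13 to 0.16, none past the threshold. Scn7a had 0.17 and 0.56 (SE 0.18, edgeR adjusted p 0.086 in Tau+), and limma-voom called it in Tau+. Without replicate 2 of Ch25h+/+ Tau+, edgeR called Scn2a, Scn3a and Scn7a higher in Tau+, and without replicate 1 of Ch25h-/- Tau+ Scn3a.

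Of the beta subunits, Scn2b had log2 fold changes of -0.18 (SE 0.08) in Tau- and -0.01 (SE 0.08) in Tau+, and Scn3b had 0.25 (SE 0.14) and 0.34 (SE 0.14). Neither these nor Scn4b passed the threshold in either state.

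Of the remaining calcium channel pore subunits, Cacna1e, the R-type subunit, had a log2 fold change of 0.37 (SE 0.16) in Tau+, Cacna1h, a T-type subunit, 0.24 (SE 0.11) and Cacna1b, the N-type subunit of presynaptic terminals, 0.21 (SE 0.09), none past the threshold. Cacna1a was at 213 to 279 CPM over all 16 libraries, with log2 fold changes of 0.06 and 0.05 (SE 0.09), and Cacna1g had 0.06 and -0.03 (SE 0.10). Cacna1s had 0.45 (SE 0.41) in Tau+ and 0.86 (SE 0.42) in Tau-, from 3 to 17 counts per library. Cacna2d1, the alpha2delta subunit bound by gabapentin, went from 172 to 223 CPM to 221 to 251 CPM in Tau-, and from 160 to 233 CPM to 212 to 292 CPM in Tau+. Its log2 fold changes of 0.30 (SE 0.12) and 0.41 (SE 0.12) did not pass (edgeR adjusted p 0.158 and 0.0614), while DESeq2, limma-voom and edgeR with either other count filter (no filter beyond 1 count, or a mean of at least 50 counts, adjusted p 0.0499) or without replicate 2 of Ch25h+/+ Tau+ or replicate 1 of Ch25h-/- Tau+ called Cacna2d1 higher in Tau+ and edgeR on only the 8 libraries compared in Tau-.

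In the potassium channels none of 20 genes passed with edgeR in either state, while 3 in Tau- and 4 in Tau+ had an unadjusted p under 0.05, beside 20.9% and 23.9% of all genes. DESeq2 called 0 in Tau- and Kcna3, Kcnb2 and Kcnd3 in Tau+, and limma-voom called Kcnc4 in Tau- and the same 3 in Tau+. In edgeR, Kcna3 and Kcnd3 passed in Tau+ with no filter beyond 1 count, and Kcnb2 and Kcnq3 in Tau- with only the 8 libraries compared. Kcnb2 also passed in Tau+ without replicate 2 or 3 of Ch25h+/+ Tau+ or replicate 1 of Ch25h-/- Tau+. Kcnd3 passed in Tau+ without replicate 2 of Ch25h+/+ Tau+ and Kcna3 without replicate 3 of that group. Both other tools also called more of all 17736 genes: DESeq2 1124 in Tau- and 1494 in Tau+ and limma-voom 1388 and 1883, against 182 and 629 with edgeR. Kcna3 was at 12.8, 10.8, 8.98 and 9.09 CPM in Ch25h-/- Tau- and at 10.8, 12, 10.5 and 11.7 CPM in Ch25h-/- Tau+. In Tau+ every library without Ch25h was above every library with it (log2 fold change 0.89, SE 0.29, edgeR adjusted p 0.0873), and without the library at 1.6 CPM the log2 fold change of Kcna3 was 0.59. Of the microglial markers, 3 of 4 passed the threshold and were lower in that comparison, while P2ry12 had a log2 fold change of 0.23 and did not pass, with sums of 192 to 220 CPM without Ch25h. Kcnb2 had log2 fold changes of 0.30 and 0.42 (SE 0.14) and Kcnd3, an A-type subunit, 0.22 and 0.38 (SE 0.13). Kcnc4 had -0.26 (SE 0.09, adjusted p 0.117) in Tau- and -0.04 (SE 0.09) in Tau+. Kcna2 (0.18 and 0.21, SE 0.13) and Kcnd2 (0.11 and 0.13, SE 0.10) did not pass.

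Among the HCN genes, Hcn2, the HCN subunit with the highest level here, went from 276, 337, 286 and 333 CPM to 194, 282, 233 and 253 CPM in Tau- and from 310, 250, 330 and 316 CPM to 273, 249, 221 and 234 CPM in Tau+. Both pairs of groups overlapped, and the log2 fold changes were -0.36 (SE 0.11, edgeR adjusted p 0.0958) and -0.30 (SE 0.11, adjusted p 0.118). DESeq2 called Hcn2 lower in Tau-, and limma-voom in neither state. Without replicate 2 of Ch25h+/+ Tau+, edgeR called Hcn2 lower in Tau+. Hcn3 had log2 fold changes of 0.00 and 0.22 (SE 0.11) and Hcn4, the pacemaker subunit of the heart, 0.00 and 0.26 (SE 0.25), neither past the threshold.

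**Figure D3:**
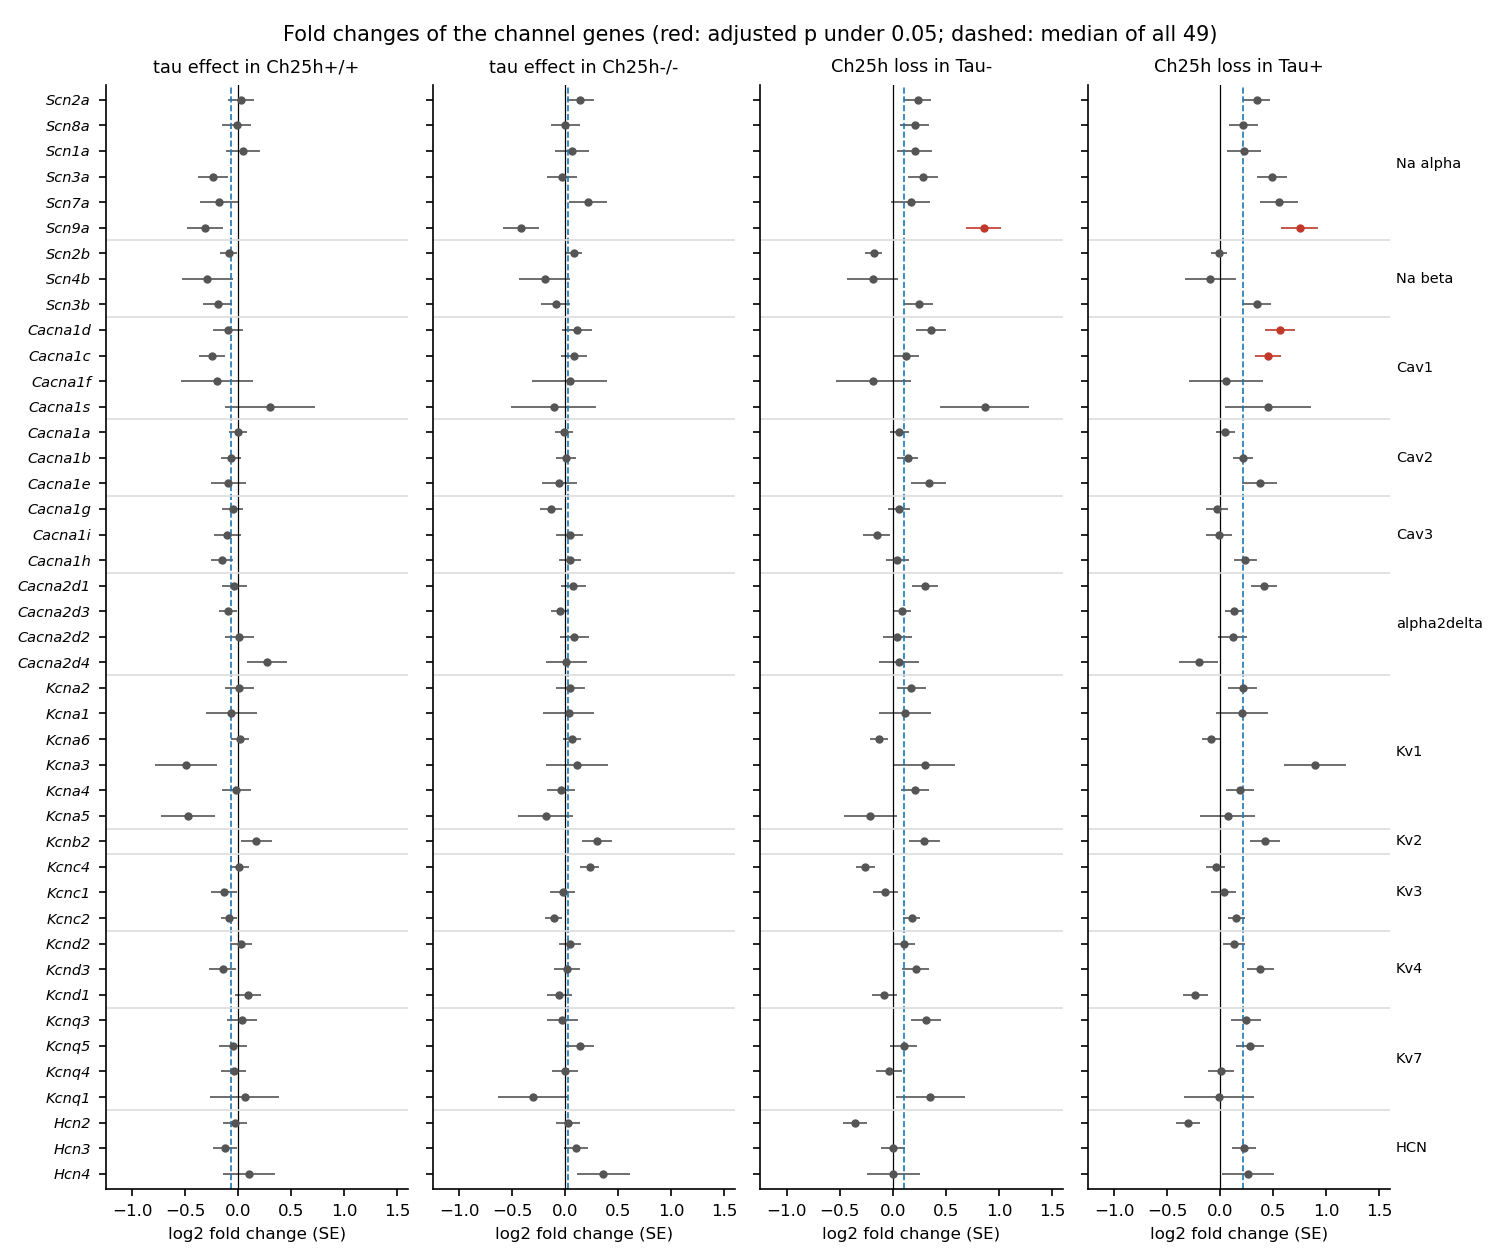
Log2 fold change and its standard error for 43 of the channel genes in the 4 pairwise comparisons, by family; red points passed an adjusted p of 0.05, and the dashed line is the median of all 49. No gene is red for tau status, Scn9a is red for Ch25h loss in both tau states, and Cacna1d and Cacna1c are red in Tau+.

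Counted over all 49 genes, 34 had a log2 fold change above 0 with Ch25h loss in Tau- (median 0.10) and 37 in Tau+ (median 0.21), beside medians of 0.01 and 0.00 over all genes tested. An unadjusted p under 0.05 was reached by 10 of 49 in Tau- beside 20.9% of all genes, and by 19 of 49 in Tau+, 17 of them higher, beside 23.9%. Groups did not overlap for 7 of 49 genes in Tau- beside 16.2% of all genes, and for 8 of 49 in Tau+ beside 10.2%. In Tau- 5 had an unadjusted p under 0.05 without replicate 4 of Ch25h+/+ Tau-, and 15 without replicate 1 of Ch25h+/+ Tau+. Without replicate 1 of Ch25h+/+ Tau+ the median in Tau+ was 0.08, with 33 of 49 above 0 and 12 with an unadjusted p under 0.05. Without replicate 3 of that group it was 0.27, with 41 above 0 and 26 with such a p. In the same comparison in Tau+, summed astrocyte markers were at 1170 to 2282 CPM with Ch25h and at 931 to 1127 CPM without it, with 0 of 5 log2 fold changes above 0 and Gfap past the threshold and lower (log2 fold change -1.96, edgeR adjusted p 0.000767). Oligodendrocyte markers summed to 2426 to 4568 and 2340 to 3518 CPM, with 0 of 5 above 0 and none past the threshold, and 3 of 4 microglial markers were past the threshold and lower, as given above. In Tau-, 0 of 5 oligodendrocyte and 3 of 5 astrocyte markers were above 0, and no astrocyte, oligodendrocyte or microglial marker passed the threshold. Of the neuronal markers in Tau+, 3 of 4 excitatory, 3 of 5 pan-neuronal and 1 of 6 inhibitory ones were above 0. Their median log2 fold changes were 0.08, 0.06 and -0.07. In Tau- 2 of 4, 3 of 5 and 3 of 6 were above 0, with medians of -0.001, 0.02 and -0.04. No neuronal marker passed the threshold in either state. No marker of these lists was at 0 counts in any library. Malat1, a nuclear RNA, was at 164 to 233 CPM with Ch25h and 237 to 645 CPM without it in Tau+, and at 180 to 291 and 399 to 1021 CPM in Tau-. The value of 237 CPM was that of the rRNA-poor Ch25h-/- Tau+ library. By library kind, Malat1 was at 164 to 291 CPM in all rRNA-poor and at 399 to 1021 CPM in all rRNA-rich libraries. The part of these differences in the channel values was not tested.

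The log2 fold changes with Ch25h loss followed exon length, with Spearman's rho across the 49 genes of 0.49 in Tau- and 0.47 in Tau+. With offsets that level each library's dependence on length, the median was 0.01 in Tau-, with 25 of 49 above 0, and 0.09 in Tau+, with 36 above 0. Cacna1c then had a log2 fold change of 0.19 in Tau+, against 0.45 without these offsets.

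The log2 fold changes with Ch25h loss followed the GC content of the transcripts. Spearman's rho across the 49 genes, which are not independent replicates and share the same libraries, was -0.64 in Tau- and -0.53 in Tau+, and over 17608 genes it was -0.54 and -0.47. Of the 24 channel genes under the median GC content of 52.6%, 23 had a log2 fold change above 0 in either tau state, with medians of 0.21 and 0.30. Of the other 25 genes, 11 were above 0 in Tau- and 14 in Tau+, with medians of -0.03 and 0.03. Scn9a (42.4% G and C), Cacna1d (49.6%) and Cacna1c (50.3%) lay on the low side and Hcn2 on the high side. For tau status rho was -0.11 in Ch25h+/+ and -0.06 in Ch25h-/- libraries.

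With offsets that level each library's dependence on GC content, rho across the 49 genes was 0.08 in Tau- and -0.02 in Tau+. Over 17608 genes it was -0.02 and -0.01, since the offsets were fitted over all genes to remove this dependence. No channel gene passed the threshold, while 13 and 189 of all genes did. Scn9a then had log2 fold changes of 0.68 (edgeR adjusted p 0.129) and 0.61 (adjusted p 0.0827), Cacna1d 0.57 (adjusted p 0.0541) and Cacna1c 0.47 (adjusted p 0.0539) in Tau+. Hcn2 had -0.06 in Tau- and 0.01 in Tau+. The median over the 49 genes was 0.10 in Tau- and 0.22 in Tau+, with 38 and 46 of 49 above 0. Whether Ch25h genotype or library kind sets the remaining values cannot be told apart.

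**Figure D4:**
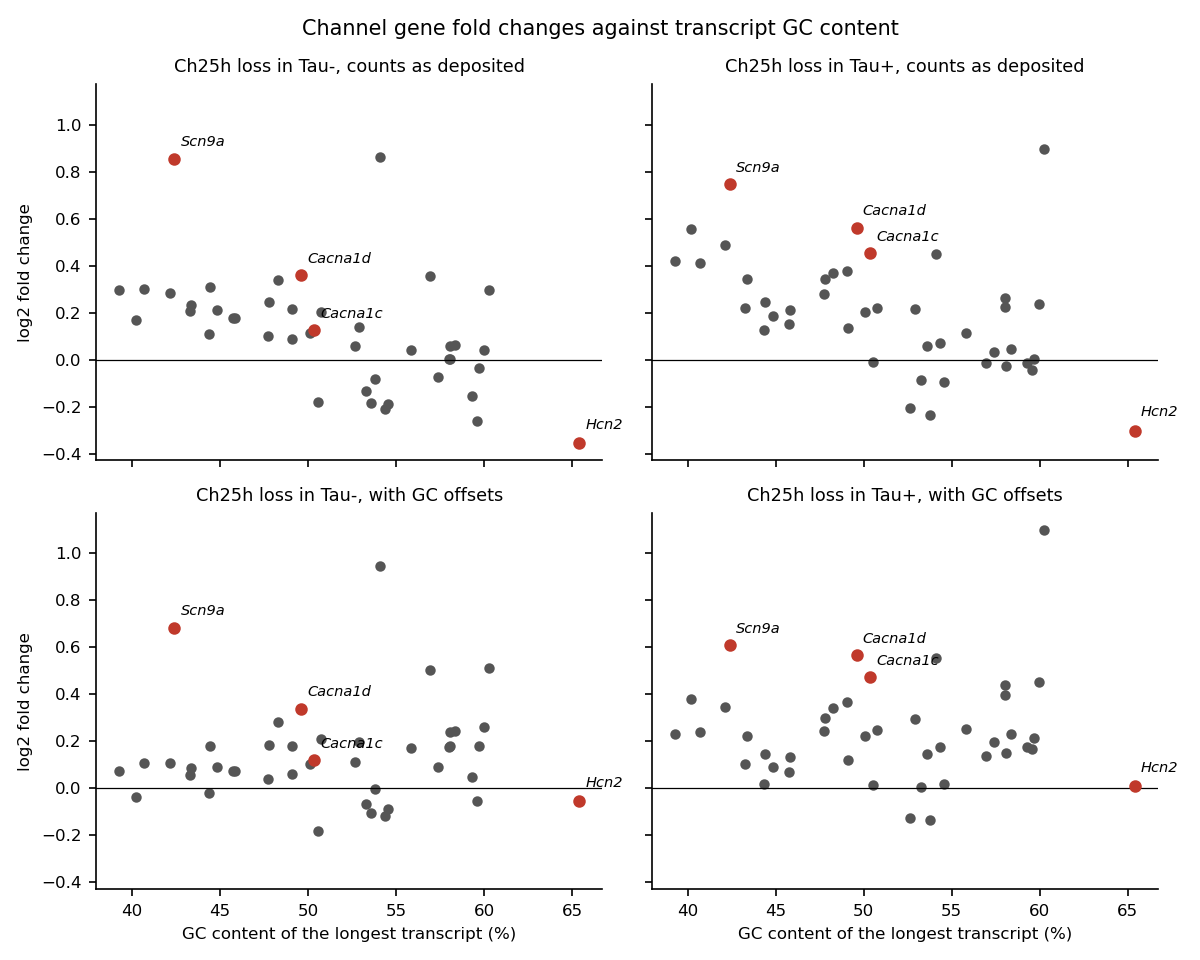
Log2 fold change with Ch25h loss against GC content of the longest transcript for 43 of the channel genes, in Tau- (left) and Tau+ (right), from the counts as deposited (top) and with GC offsets (bottom); red points are Scn9a, Cacna1d, Cacna1c and Hcn2. The slope of the top panels, with rho over all 49 genes of -0.64 and -0.53, is absent from the bottom panels, with rho of 0.08 and -0.02. The offsets were fitted over all genes tested to remove this slope, so a rho near 0 follows from how they were made.

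The interaction, which asks whether Ch25h loss acted differently in Tau+ than in Tau-, was past the threshold for none of the 49 genes, beside 0.0338% of all genes. DESeq2 and limma-voom also called 0, and 0 of 49 had an unadjusted p under 0.05 with edgeR, beside 4.13% of all genes. The median was 0.09 with 38 of 49 above 0, beside 0.02 over all genes tested. Without replicate 1 of Ch25h+/+ Tau+ it was 0.01, with 25 above 0, and without replicate 3 of that group 0.17, with 43 above 0. Cacna1c had an interaction of 0.33 (SE 0.17, unadjusted p 0.0710) and Kcnc4 0.22 (SE 0.13). For Scn9a the interaction was -0.11 (SE 0.24) and for Cacna1d 0.20 (SE 0.20), so that a difference between the tau states was not shown for Cacna1d or Cacna1c, which passed in only 1 of them.

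Channels work with partner proteins. Genes of such partners and of other channels, 71 in all, were listed, and 68 of them were tested. Among them were calcium channel beta and gamma subunits, Kv beta, KChIP and DPP subunits of potassium channels, and silent and Kcne subunits. The list also held partners of sodium and HCN channels, anchoring proteins of the axon initial segment and proteins that cluster potassium channels. Other potassium channels and the sodium leak channel Nalcn were in it too. The counts below are over the 68 tested genes of this whole list. None passed with edgeR for tau status or the interaction, where 7 of 68 in Ch25h+/+, 2 in Ch25h-/- and 2 for the interaction had an unadjusted p under 0.05, beside 9.38%, 3.68% and 4.13% of all genes. With Ch25h loss 29 of 68 in Tau- and 20 of 68 in Tau+ had such a p, beside 20.9% and 23.9% of all genes. After adjustment 1 of 68 passed in Tau-, beside 1.03% of all genes, and 2 of 68 in Tau+, beside 3.55%. The partner that passed in Tau- was Cacng8, an auxiliary subunit of AMPA receptors in the calcium channel gamma family. It was at 104, 113, 111 and 101 CPM with Ch25h and 69.2, 69.3, 84.5 and 95.4 CPM without it, lower in all 4 libraries (log2 fold change -0.43, SE 0.10, edgeR adjusted p 0.04996, just under the threshold). In Tau+ Cacnb2, a cytoplasmic calcium channel subunit that carries the pore to the membrane, was at 31.8, 32.9, 37.3 and 33.4 CPM with Ch25h and 37.6, 48.1, 41.7 and 45.2 CPM without it (0.35, SE 0.09, adjusted p 0.0442). Dpp10, which speeds Kv4 currents, was at 158, 170, 158 and 147 CPM with Ch25h and 172, 216, 203 and 224 CPM without it (0.36, SE 0.09, adjusted p 0.0352). Neither pair of groups overlapped. The GC content was 65.1% for Cacng8, 39.0% for Cacnb2 and 39.7% for Dpp10. With GC offsets none of the 3 passed, with log2 fold changes of -0.14 for Cacng8 (edgeR adjusted p 0.652), 0.14 for Cacnb2 (adjusted p 0.424) and 0.17 for Dpp10 (adjusted p 0.353). With the covariate for library kind they were -0.12, 0.15 and 0.12, again not past the threshold, in a fit that called 0 of all genes in Tau- and 10 in Tau+. With length offsets Cacng8 was at -0.40, Cacnb2 at 0.15 and Dpp10 at 0.12, and none passed. DESeq2 and limma-voom called all 3. Leaving out each library in turn, Cacng8 lost its call in 13 of 16 fits (-0.53 to -0.37), Cacnb2 in 12 (0.28 to 0.40) and Dpp10 in 6 (0.30 to 0.42).

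Over the 16 libraries some channel genes moved closely together. By Pearson's r of log2(CPM + 0.5), the gene most like Scn8a was Kcnq3 (0.97), that of Scn1a was Kcna2 (0.96), that of Scn3a was Kcnd3 (0.95), and that of Scn2a was Cacna2d1 (0.93). For Scn9a it was Kcnc2 (0.83), for Cacna1d Kcnq3 (0.83) and for Cacna1c Cacna1e (0.93). These values describe the libraries, which share depth, library kind and the low replicate.

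Reads of overlapping genes can be counted for either when strand is not used, and its use is not given in the sources used here. Exons of 13 of the 49 genes overlap an exon of another gene, all on the opposite strand. The overlap took 39.6% of the exon bases of Kcna6, 20.0% of Cacna1s and 17.1% of Hcn3. The overlapping genes had at most 60, 2 and 4 counts in any library, against 1079 to 1947 for Kcna6, 3 to 17 for Cacna1s and 322 to 699 for Hcn3, and how reads in the shared bases were assigned was not tested. It took 1.41% in Scn9a (with the antisense gene Gm13629, at most 105 counts against 41 to 131 for Scn9a) and 4.67% in Cacna1d (with Chdh, at most 148 counts against 440 to 1460).

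Scn9a, Cacna1d and Cacna1c were looked up in the RefSeq promoter table (GRCm38.p6), which matched 30 of the 49 genes by symbol, from 250 bases before to 50 bases after the start. Of several promoters of 1 gene, the window nearest the annotated gene start was taken. Capitals mark matches to TATAAA on either strand, which can overlap.
Scn9a: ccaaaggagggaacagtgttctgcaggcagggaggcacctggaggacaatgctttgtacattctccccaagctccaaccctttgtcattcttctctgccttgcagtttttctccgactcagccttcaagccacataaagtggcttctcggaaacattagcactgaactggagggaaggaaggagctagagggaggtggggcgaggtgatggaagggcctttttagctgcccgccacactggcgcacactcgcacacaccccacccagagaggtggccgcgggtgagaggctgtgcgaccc
Cacna1d: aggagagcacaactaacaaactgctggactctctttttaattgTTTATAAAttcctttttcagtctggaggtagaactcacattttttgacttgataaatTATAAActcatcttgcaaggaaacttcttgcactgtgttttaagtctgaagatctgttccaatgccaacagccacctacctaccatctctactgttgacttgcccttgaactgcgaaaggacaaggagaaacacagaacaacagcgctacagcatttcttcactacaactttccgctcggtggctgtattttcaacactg
Cacna1c: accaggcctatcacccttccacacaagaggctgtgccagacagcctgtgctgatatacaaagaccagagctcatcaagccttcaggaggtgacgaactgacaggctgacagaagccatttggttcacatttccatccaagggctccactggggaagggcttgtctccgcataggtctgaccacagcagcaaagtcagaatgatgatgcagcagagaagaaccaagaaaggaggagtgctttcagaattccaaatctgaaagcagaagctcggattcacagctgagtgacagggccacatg
These windows lie at chr2:66634913-66635212, chr14:30491107-30491406 and chr6:119196360-119196659, all on the minus strand. They hold 57.3%, 40.3% and 51.3% G and C, beside a median of 63.5% over the 30 channel promoters and 52.7% over all 32851 promoters in the table. TATAAA was found in Cacna1d, the only match among the 30 promoters (3.3%, beside 13.6% of all promoters). The GC box GGGCGG, searched on both strands, was in none of the 3, in 50% of the 30 and in 35.7% of all promoters. A match or its lack in this window says nothing of a factor's binding.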

How the data were processed

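Bulk RNA-seq libraries were made from mouse brain RNA with a SMARTER mRNA-Seq kit, per the labels' protocols. The authors deposited 1 table of whole-number read counts per gene symbol for all 16 libraries. STAR 2.7 and the builds GRCm38 and mm10 are named in the submitters' processing notes. The counting program, the annotation and the use of strand are not given in the sources used here. The table repeats 105 symbols, and no per-library column was left unused.

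From the counts, edgeR 4.0.16 (R 4.3.3) was fitted with TMM normalization and its filterByExpr filter to all 16 libraries in 1 model of 4 groups, with the quasi-likelihood test and Benjamini-Hochberg adjustment over 17736 genes at 0.05. The 5 comparisons were tau status within each Ch25h genotype, Ch25h loss within each tau status, and their interaction. SE is the log2 fold change divided by the square root of the F statistic. CPM uses the TMM library sizes, and CPM per kb divides by the union of GENCODE M21 exons (GRCm38). All 49 channel genes were matched there. GC content is that of the longest transcript.

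Named genes are those past the threshold, the 3 with the smallest p in each comparison, the highest of each family per kb, Scn1a, Scn2a, Scn3a, Scn8a, Scn4b, Cacna2d3 and Kcna3. A few genes and markers that these rules take are not reported here by name. They stay in every count, median and rho over the 49 genes. Other genes appear by family, picked with their values in view. The genes, lists and tests were chosen with earlier results of these data known. Alternatives were DESeq2 1.42.0, limma-voom (limma 3.58.1), relative log expression factors, 2 other count filters, only the 8 libraries compared, a covariate for library kind, offsets for GC content or length (loess span 0.5), and each library left out.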

Additional observations from a re-analysis of the deposited data

How the results depend on the processing

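No channel gene passed the threshold for tau status or the interaction under any alternative run. For Ch25h loss the count, 1 of 49 in Tau- and 4 of 49 in Tau+, was 2 and 8 with no filter beyond 1 count, 1 and 5 of 45 with a mean of at least 50 counts (127 and 717 of 13429 genes), 2 and 9 with DESeq2, 3 and 10 with limma-voom, 5 and 0 with only the 8 libraries compared, and 0 and 0 both with the covariate for library kind and with GC offsets. The count over all genes moved too, from 182 and 629 to 522 and 877 with no filter beyond 1 count, 1124 and 1494 with DESeq2, 1388 and 1883 with limma-voom, 1229 and 106 with the 8 libraries, 0 and 10 with the covariate and 13 and 189 with GC offsets. Length offsets gave 1 channel gene in Tau- and 0 in Tau+, with medians of 0.01 and 0.09 and 238 and 357 of all genes, and the rRNA-poor Ch25h-/- Tau+ library alone, chosen after seeing the data, gave 0, from fewer libraries, with 9 of 19349 genes. Leaving out 1 library gave 0 to 3 in Tau- and 0 to 11 in Tau+. The cause of these changes was not tested. DESeq2 gave no adjusted p for Scn9a in Tau-. The median for tau status, near 0 in both genotypes, changed sign with single libraries left out, ranging from -0.14 to 0.01 around -0.06 in Ch25h+/+ and from -0.02 to 0.03 around 0.02 in Ch25h-/-, and that of the interaction ranged from 0.01 to 0.17 around 0.09. The fold changes of Scn9a, Cacna1d and Cacna1c with Ch25h loss kept their direction in the comparisons where they passed, with the lowest for Cacna1c at 0.19 (length offsets) against 0.45. Depth limits Cacna1s, Kcnq1 and Cacna1f, with at most 17, 19 and 38 counts. No paired analysis was possible because the labels carry no replicate numbers shared between groups, and replicates were numbered in accession order.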
